A study of Mus musculus with 9 samples.

Results

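The genes that encode the proteasome were followed from mouse embryonic fibroblasts (MEFs) into chemically induced extraembryonic endoderm-like (ciXEN) cells. The genes were chosen by name: every listed gene whose symbol is Psma, Psmb, Psmc, Psmd, Psme, Psmf or Psmg followed by a number. This rule found 46 of the 13787 genes listed, and 45 of them reached the mean level needed for testing. Psmb9 was the exception. Psma8 and Psmb11, which also match the rule in the annotation, were not listed.

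The series holds 9 RNA-seq libraries in 3 groups of 3, all from cells of the CF-1 mouse strain. The MEFs, cultured in DMEM-based medium, were at passage 3. The ciXEN cells were made from MEFs with a mixture of small molecules (VPA, CHIR99021, RepSox, Parnate, forskolin, AM580 and EPZ004777) and bFGF on Matrigel, and were then kept in a knockout DMEM-based medium with chemicals and bFGF. They came from handpicked clones and were sequenced at passage 5 (p5) and passage 30 (p30). The labels give the same 3 cell lines at both passages, so a p30 library is a later culture of the line behind its p5 library and not a new induction. Cell type and culture medium changed together between MEFs and ciXEN cells and cannot be told apart. Nothing states that the MEF libraries came from separate embryos, so the p-values measure the spread between these libraries, which may be technical.

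The proteasome is the large protease that degrades ubiquitin-tagged proteins in the cytosol and nucleus. Its core, the 20S particle, is a barrel of stacked rings made of alpha subunits (Psma genes) and beta subunits (Psmb genes), and the proteolytic sites lie on the beta subunits encoded by Psmb5, Psmb6 and Psmb7. The 19S regulatory particle caps the barrel, with a base of ATPases (Psmc genes) that unfold substrates and non-ATPase subunits (Psmd genes) that bind and strip ubiquitin. In immune cells, and in other cells exposed to interferon-gamma, the catalytic subunits are replaced during assembly by Psmb8, Psmb9 and Psmb10, which gives the immunoproteasome and alters the peptides made for MHC class I. Activators (Psme genes) can bind the core in place of the 19S cap, and the proteins of the Psmg genes are chaperones that help to build the core.

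Levels are in FPKM, the fragments assigned to a transcript scaled for its length and for the number of mapped fragments in the library. The values of a gene's transcripts were added. The number of sequenced fragments per library is unknown, and so is the counting error of a low value. The summed FPKM ranged from 315395 to 342201 between libraries. All 8 fibroblast markers fell in ciXEN cells and all 7 extraembryonic endoderm markers rose, so the libraries matched their labels as MEFs or ciXEN cells. These markers do not check the labels of passage and line. Unless stated otherwise, fold changes are on the scale of log2(FPKM + 1), given with their standard error (SE), from a limma fit of all 9 libraries. "Rose" and "fell" mean an adjusted p under 0.05, Benjamini-Hochberg adjusted over the 12443 genes tested.

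The promoters of the immune catalytic genes and of the constitutive Psmb5 and Psmb6 are shown because the results turn on these genes. Each window holds the bases on the gene's own strand from 250 before to 50 after a RefSeq transcription start (build GRCm38.p6), written 5′ to 3′. Capitals mark letters that match one of 4 motifs, searched on both strands: the antioxidant response element bound by NFE2L1 and NFE2L2 (TGACNNNGC), the gamma-activated site of interferon-gamma-induced genes (TTCNNNGAA, which reads the same on both strands), the interferon-stimulated response element (GAAANNGAAA) and the CCAAT box. No overlap between matches of different motifs occurred in the windows shown. The immune genes come first, Psmb8 at chr17:34197945-34198244 on the plus strand, Psmb9 at chr17:34187281-34187580 on the minus strand and Psmb10 at chr8:105938343-105938642 on the minus strand.
Psmb8: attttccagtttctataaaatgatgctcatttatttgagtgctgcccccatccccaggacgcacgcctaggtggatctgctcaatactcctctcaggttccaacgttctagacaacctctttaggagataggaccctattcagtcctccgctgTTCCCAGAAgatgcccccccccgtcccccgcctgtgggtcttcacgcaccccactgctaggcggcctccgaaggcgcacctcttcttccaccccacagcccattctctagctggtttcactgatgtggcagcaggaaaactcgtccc
Psmb9: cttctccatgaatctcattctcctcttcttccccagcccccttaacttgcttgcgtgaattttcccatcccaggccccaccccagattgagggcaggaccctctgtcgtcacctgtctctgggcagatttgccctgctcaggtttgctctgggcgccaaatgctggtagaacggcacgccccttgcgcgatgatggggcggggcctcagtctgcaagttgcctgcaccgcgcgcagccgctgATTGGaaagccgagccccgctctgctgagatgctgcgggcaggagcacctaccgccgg
Psmb10: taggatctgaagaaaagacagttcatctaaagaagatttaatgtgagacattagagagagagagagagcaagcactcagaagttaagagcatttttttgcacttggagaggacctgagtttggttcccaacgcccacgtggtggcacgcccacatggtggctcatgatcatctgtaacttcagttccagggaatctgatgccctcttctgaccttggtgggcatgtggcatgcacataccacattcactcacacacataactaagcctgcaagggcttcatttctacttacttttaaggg
The constitutive genes follow, Psmb5 at chr14:54617946-54618245 on the minus strand and Psmb6 at chr11:70525107-70525406 on the plus strand.
Psmb5: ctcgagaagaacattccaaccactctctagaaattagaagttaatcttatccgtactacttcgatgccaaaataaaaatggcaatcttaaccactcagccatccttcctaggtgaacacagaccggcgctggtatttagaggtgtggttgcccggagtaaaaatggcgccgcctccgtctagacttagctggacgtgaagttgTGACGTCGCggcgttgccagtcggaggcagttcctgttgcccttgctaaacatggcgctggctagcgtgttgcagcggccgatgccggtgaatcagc
Psmb6: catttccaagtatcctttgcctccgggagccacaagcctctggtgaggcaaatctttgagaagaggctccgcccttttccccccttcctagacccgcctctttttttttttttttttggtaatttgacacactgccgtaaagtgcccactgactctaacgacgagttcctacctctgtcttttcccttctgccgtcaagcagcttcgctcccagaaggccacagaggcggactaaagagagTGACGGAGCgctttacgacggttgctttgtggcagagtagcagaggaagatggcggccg

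The Psmb8 window held a match to the gamma-activated site, TTCCCAGAA, which starts 97 bases before the RefSeq start used. The Psmb8 and Psmb9 windows lie wholly inside the gene bounds given below, downstream of the outermost starts, which were not searched. The Psmb9 window held a reverse-strand CCAAT box, ATTGG, 8 bases before the start, and the Psmb10 window held no match. Psmb9 and Tap1, a peptide transporter gene, are divergent neighbours, and their windows share 275 bases. Both constitutive windows shown held an antioxidant response element match, TGACGTCGC in Psmb5 and TGACGGAGC in Psmb6. No window was found for Psmb7, the other constitutive catalytic gene. Over the 42 windows found for 39 of the 46 genes, the antioxidant response element letters occurred in 6 (14.3%, against 12.4% of all 32851 windows of 300 bases) and the gamma-activated site letters in 3 (7.14%, against 8.30%). The interferon-stimulated response element letters occurred in 5 windows (11.9%, against 3.44%), those of Psmb3, Psmd4, Psmd9, Psme1 and Psmg4. No window of an immune catalytic gene or of Psme2 held them. The CCAAT box occurred in 13 windows (31.0%, against 37.4%). A match is a stretch of letters and was not tested for binding.

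The immune catalytic subunits were the members that differed most between MEFs and ciXEN cells. Psmb8, the immune counterpart of Psmb5, lies at chr17:34197721-34201454 (GRCm38, plus strand). Its level was 7.62, 4.62 and 3.98 FPKM in the 3 MEF libraries. In ciXEN cells it was 0.189, 0.515 and 0 FPKM at p5 and 0.151, 0.195 and 0.541 FPKM at p30. Every ciXEN library lay below every MEF library, and the passages overlapped. Psmb8 fell, with a log2 fold change of -2.32 ± 0.21 (SE, adjusted p = 8.55e-06), and the ciXEN mean was 4.91% of the MEF mean.

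Psmb10, the counterpart of Psmb7, lies at chr8:105935735-105938444 on the minus strand. It was at 6.22, 3.43 and 4.65 FPKM in MEFs. The p5 libraries gave 0.200, 1.05 and 0.655 FPKM and the p30 libraries 0.878, 0 and 0.541 FPKM. Again no ciXEN library reached the lowest MEF library. Psmb10 fell, with a log2 fold change of -1.91 ± 0.25 (adjusted p = 0.000107), to 11.6% of the MEF mean.

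Psmb9, the counterpart of Psmb6, lies at chr17:34181987-34187764 on the minus strand, and its start overlaps that of Tap1 on the plus strand. It was the lowest of the immune subunits, at 1.39, 0.206 and 0.889 FPKM in MEFs. In ciXEN cells it was listed at 0.0372, 0.0889 and 0 FPKM at p5 and at 0, 0.0362 and 0 FPKM at p30. The groups did not overlap, but the mean over the 9 libraries was under the minimum of 0.5 FPKM and no test of it was made in the main fit. Without that minimum its log2 fold change was -0.78 ± 0.18 (adjusted p = 0.00590), a value that the added 1 FPKM compresses at these levels. Antisense genes overlap Psmb8 (Gm20496) and Psmb10 (Gm16156) but neither was listed, and the sources used here do not say whether fragments were assigned by strand.

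The constitutive partners of these subunits did not follow them down. Psmb5, which carries the chymotrypsin-like site, was at 36.4, 41.0 and 34.3 FPKM in MEFs, 28.8, 38.4 and 35.7 FPKM at p5 and 35.6, 38.2 and 41.1 FPKM at p30. The 3 groups overlapped, and its log2 fold change of -0.04 ± 0.11 did not pass the test (adjusted p = 0.746). Psmb6, with the caspase-like site, was at 75.2, 62.7 and 64.2 FPKM in MEFs, 65.8, 77.8 and 70.8 FPKM at p5 and 81.3, 101.7 and 85.6 FPKM at p30. Its p30 libraries were all above the MEF libraries while those at p5 overlapped them. Psmb6 rose by 0.24 ± 0.10 on the log2 scale (adjusted p = 0.0474), a call that 14 of the alternative settings did not keep. Psmb7, with the trypsin-like site, was at 81.0, 81.5 and 75.8 FPKM in MEFs, 108.5, 109.0 and 108.7 FPKM at p5 and 131.9, 127.1 and 121.1 FPKM at p30. Its 3 groups were fully separated in that order, and Psmb7 rose by 0.56 ± 0.06 (adjusted p = 1.94e-05).

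**Figure D1:**
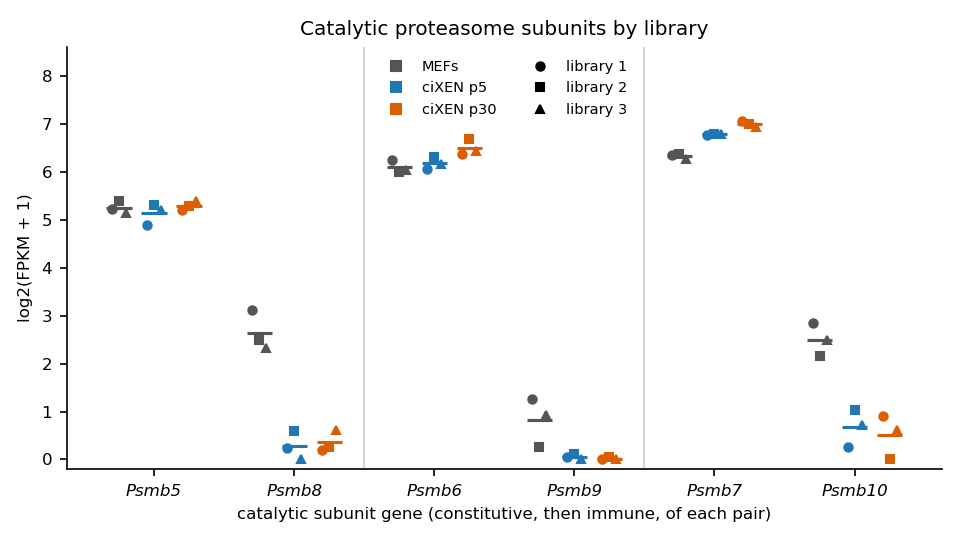
Level of each catalytic subunit gene as log2(FPKM + 1) in the 3 MEF, 3 ciXEN p5 and 3 ciXEN p30 libraries, with symbols for libraries and a short line at each group mean. The immune genes Psmb8, Psmb9 and Psmb10 are lower in every ciXEN library than in any MEF library, whereas Psmb5 overlaps between groups and Psmb7 is higher in ciXEN cells.

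The immune gene's share of the RNA of each catalytic pair gives 1 number per library. It was calculated as the immune gene's percentage of the FPKM of the pair, since the listed values of 0 leave a log ratio undefined. Which subunits sat in assembled particles was not measured. In MEFs Psmb8 made up 17.3%, 10.1% and 10.4% of Psmb8 plus Psmb5. In the 6 ciXEN libraries it made up between 0% and 1.33%. The mean share fell from 12.6% ± 4.06 (SD, n = 3) to 0.701% ± 0.521 (SD, n = 6), with an exact permutation p of 0.0238 (two-sided). The Psmb10 share of Psmb10 plus Psmb7 was 5.65% ± 1.55 in MEFs and 0.474% ± 0.344 in ciXEN cells (exact permutation p = 0.0238). The Psmb9 share of Psmb9 plus Psmb6 was 1.17% ± 0.761 in MEFs and 0.0344% ± 0.0456 in ciXEN cells (exact permutation p = 0.0238). This p is the smallest that 6 against 3 libraries can give, and Benjamini-Hochberg adjustment over the 3 pairs left it at 0.0238. The 6 ciXEN libraries are 3 lines at p5 and p30, which the test counted as separate. With the line as the unit, 3 against 3, the smallest possible p is 0.1, so no share could reach 0.05. Without any 1 of the MEF libraries the smallest possible p is 0.071, and each difference then had that value.

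Over the 6 catalytic genes together, the immune genes made up 7.32%, 4.27% and 5.18% of the FPKM in MEFs and between 0.0864% and 0.730% in ciXEN cells. The lowest MEF library was thus well above the highest ciXEN library. Between passages the shares overlapped. The p30 minus p5 difference was 0.0847 percentage points for Psmb8 (exact permutation p = 1), -0.0450 for Psmb9 (exact permutation p = 0.4) and -0.211 for Psmb10 (exact permutation p = 0.5). Libraries of the same line paired gave exact p-values of 1, 0.5 and 0.75. The smallest p for 3 against 3 libraries is 0.1, and for 3 pairs 0.25, so these comparisons could not reach 0.05.

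Most markers of macrophages moved in the same direction as the immune subunits. Of 15 listed macrophage and blood cell markers, 13 were tested and 12 fell (27.6% of all tested genes fell). Cd14 was higher at p5 than in MEFs, without passing the test (log2 fold change 0.59, limma adjusted p = 0.0550). Their summed level was 122 to 205 FPKM in MEFs and 2.87 to 8.46 FPKM in ciXEN cells. The macrophage lysozyme gene Lyz2 was at 120.7, 61.0 and 94.9 FPKM in MEFs and between 0.114 and 0.347 FPKM in ciXEN cells. The complement genes C1qa, C1qb and C1qc, the receptor genes Adgre1 and Cx3cr1, and Aif1, Cd53 and Fcer1g were listed at 0 in all 6 ciXEN libraries (8 of 15). MEF library 1 had the highest summed marker level, and it had the highest Psmb8, Psmb9 and Psmb10 levels of all libraries. Lyz2 was a large part of each MEF sum. The lowest MEF sum was in library 2 with Lyz2 (122 FPKM) and in library 3 without it (58.6 FPKM, against 61.0 in library 2). The lowest MEF level of Psmb8 was in library 3 and those of Psmb9 and Psmb10 were in library 2. The part of macrophages in the immune subunit result was not tested. In bulk RNA, fewer cells of a type and less RNA per cell cannot be told apart. Lymphocyte and red cell marker genes were not listed. Of 3 listed endothelial markers, 2 rose (42.4% of all tested genes rose), from a summed level of 1.16 to 1.70 FPKM in MEFs.

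Genes of interferon signalling, the pathway that induces the immune subunits, were lower in ciXEN cells. Of 12 tested genes of this list, 11 fell and 1 rose (27.6% and 42.4% over all tested genes). Their median log2 fold change was -0.88, against 0.20 over all tested genes. The kinase gene Jak1 was between 53.3 and 57.1 FPKM in MEFs and between 13.3 and 18.7 FPKM in ciXEN cells (log2 fold change -1.70). Ifngr2, a chain of the interferon-gamma receptor, went from between 19.1 and 19.99 FPKM to between 4.35 and 6.91 FPKM (-1.65). The gene that rose was the kinase gene Tyk2 (0.41 ± 0.10). The study's methods name no interferon among the additions to either medium.

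The other genes of MHC class I peptide presentation did not all move with the immunoproteasome. Of 11 tested, 8 fell and 2 rose (27.6% and 42.4% over all tested genes). Tap2, which with Tap1 forms the peptide transporter of the endoplasmic reticulum and lies beside Psmb8 on chromosome 17, was at 7.95, 4.91 and 5.98 FPKM in MEFs and at most 0.475 FPKM in ciXEN cells (log2 fold change -2.56). Tap1 was at 4.84, 2.16 and 4.04 FPKM in MEFs and between 0.0481 and 1.26 FPKM in ciXEN cells (-1.75). B2m, the light chain of MHC class I, fell by 1.63 on the log2 scale but stayed between 91.1 and 170.9 FPKM. The heavy chain genes H2-D1 (1.10 ± 0.13) and H2-K1 (1.18 ± 0.24) were the ones that rose. H2-D1 also rose from p5 to p30, by 1.11. With the cell line as a block and only the p5 and p30 libraries, that call was lost. These heavy chain genes belong to a family of near-identical copies, so their own values are uncertain.

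**Figure D2:**
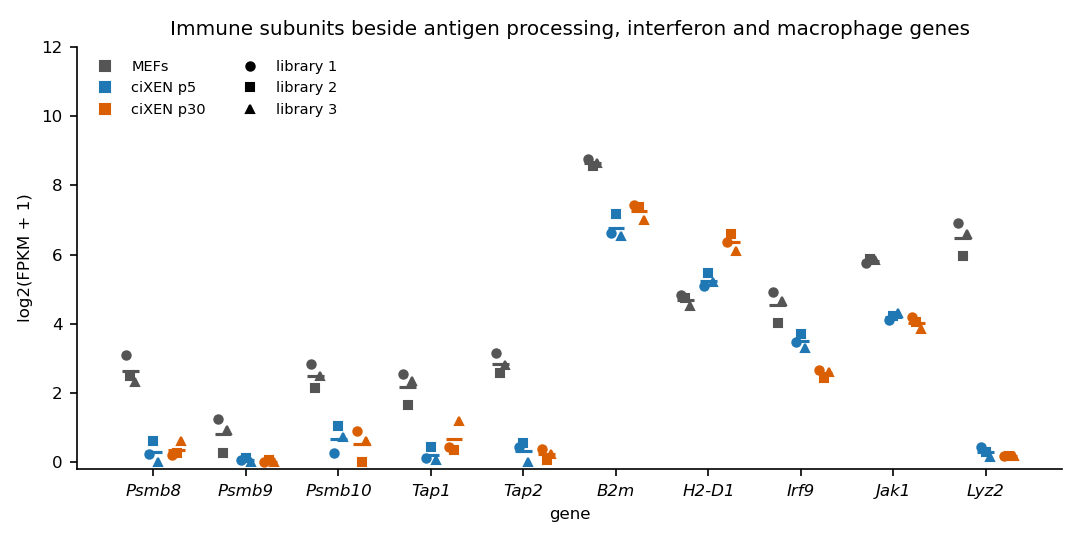
Levels as log2(FPKM + 1) by library of the immune subunits, peptide transporter (Tap1, Tap2), MHC class I (B2m, H2-D1), interferon signalling (Irf9, Jak1) and macrophage (Lyz2) genes, with a short line at each group mean. All but H2-D1 are lower in the ciXEN libraries than in the MEF libraries, and Lyz2 has the largest drop on this scale.

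Apart from the immune subunits, the proteasome genes changed little. Between all 6 ciXEN and 3 MEF libraries, 24 of the 45 tested members rose (53.3%, against 42.4% of all tested genes) and 5 fell (11.1%, against 27.6%). The members that fell were Psma3, Psma4, Psmb8, Psmb10 and Psme2. Only Psmb8 and Psmb10 changed by more than 1 on the log2 scale (2 of 45, 4.44%, against 33.1% of all tested genes). The ciXEN and MEF libraries did not overlap for 21 members (46.7%, against 61.3%). Over the 43 constitutive members the log2 fold changes ran from -0.39 to 0.68. Their median size without sign was 0.26, against 0.65 over all tested genes. The median over the 45 members was 0.23, close to the 0.20 of all tested genes. With library medians set equal 19 members rose (42.2%, against 39.7% of all tested genes) and 6 fell (13.3%, against 29.2%). After quantile normalisation 18 rose (40%, against 40.7%) and 7 fell (15.6%, against 29.0%), and the median of the members was then below that of all tested genes, at 0.12 against 0.16. The higher share of members that rose was therefore not seen under quantile normalisation.

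**Figure D3:**
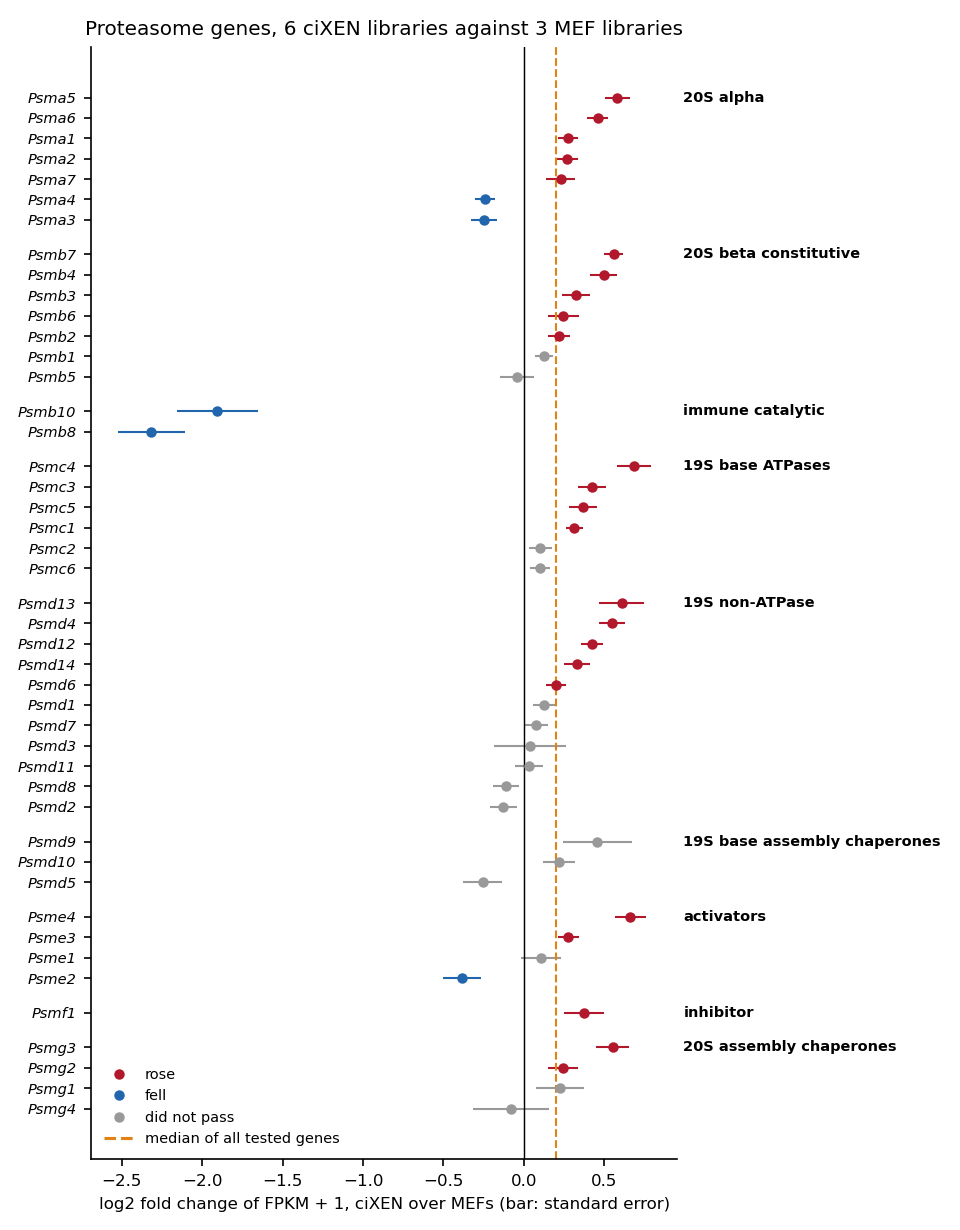
Log2 fold change (ciXEN over MEFs) of the 45 tested proteasome genes by structural group, with bars of 1 standard error, coloured by whether the gene rose, fell or did not pass the test. The constitutive members lie between -0.39 and 0.68 around the median of all tested genes (0.20, dashed line), and Psmb8 and Psmb10 lie apart near -2.

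The alpha ring genes split. Of the 7 Psma genes, which form the outer rings and the gate of the core, 5 rose and 2 fell. Over all tested genes 42.4% rose and 27.6% fell. Psma5 was at 69.8, 63.6 and 55.9 FPKM in MEFs, 86.7, 87.9 and 91.2 FPKM at p5 and 96.5, 105.3 and 101.2 FPKM at p30. Its groups were separated in that order, with a log2 fold change of 0.58 ± 0.08 (adjusted p = 0.000114). Psma6 rose by 0.46 ± 0.06, from between 123.2 and 126.4 FPKM to between 152.8 and 190.2 FPKM. Psma1 rose by 0.27 ± 0.06, from between 90.1 and 100.6 FPKM to between 103.2 and 125.7 FPKM. Psma7 had the smallest change of the group (0.23 ± 0.09, adjusted p = 0.0464), overlapped between MEFs and ciXEN cells, and lost its call under 14 alternative settings.

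Psma3 and Psma4 went the other way, and more so at p5. Psma4, the most abundant core gene in MEFs, was at 188.9, 172.5 and 163.2 FPKM there, at 140.4, 134.1 and 137.2 FPKM at p5 and at 160.8, 155.7 and 158.8 FPKM at p30. All ciXEN libraries lay below all MEF libraries, with the p5 libraries the lowest. Against MEFs it fell at p5 (-0.34 ± 0.07, adjusted p = 0.00186), while at p30 the difference of -0.14 ± 0.07 did not pass (adjusted p = 0.110). Psma3 was at 48.2, 42.1 and 38.3 FPKM in MEFs, between 31.9 and 32.2 FPKM at p5 and at 38.4, 41.5 and 39.9 FPKM at p30. It fell at p5 (-0.40 ± 0.09, adjusted p = 0.00424), and its p30 libraries overlapped the MEFs.

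None of the 7 constitutive beta genes fell and 5 rose (27.6% and 42.4% over all tested genes). Besides Psmb6 and Psmb7, these were Psmb2, Psmb3 and Psmb4, which encode beta subunits without a proteolytic site. Psmb4 was at 62.3, 58.8 and 54.7 FPKM in MEFs and between 77.1 and 98.7 FPKM in ciXEN cells, with no overlap (0.50 ± 0.08, adjusted p = 0.000577). Psmb1 lay higher in every ciXEN library (118.2 to 127.2 FPKM, against 106.5 to 117.9 FPKM) but its log2 fold change of 0.13 ± 0.06 did not pass (adjusted p = 0.0725).

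The subunits of 1 particle were not at equal levels. Among the 14 constitutive core genes the highest exceeded the lowest by 4.20 to 6.18 times within a library. Psmb5 or Psma3 was the lowest in every library, and Psma4, Psma6 or Psma7 the highest. FPKM is scaled by transcript length, which allows this comparison between genes. The order of levels over the 43 constitutive genes was nearly the same in the groups, with a Spearman correlation across genes of 0.956 between MEFs and p5, 0.970 between MEFs and p30 and 0.985 between p5 and p30. Genes are not independent replicates, and this is a description of the group means. The summed level of the 14 core genes was 1162 ± 60.7 FPKM (SD, n = 3) in MEFs, 1287 ± 22.2 at p5 and 1459 ± 15.0 at p30.

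The 6 ATPases of the 19S base, which form the ring that unfolds substrates, rose or did not pass the test. The genes that rose were Psmc1, Psmc3, Psmc4 and Psmc5 (42.4% of all tested genes rose). Psmc4 was at 59.7, 47.5 and 45.2 FPKM in MEFs, 87.5, 82.8 and 80.6 FPKM at p5 and 69.9, 84.9 and 85.3 FPKM at p30. No ciXEN library overlapped the MEFs, and its log2 fold change of 0.68 ± 0.10 (adjusted p = 0.000268) was the highest of all members. When only the highest of the gene's transcripts was used, it was 0.34 (adjusted p = 0.195). Psmc3 rose by 0.42 ± 0.09, from between 81.2 and 87.8 FPKM to between 101.4 and 129.6 FPKM. Psmc5 rose by 0.37 ± 0.09. Psmc6 had the smallest change (0.10 ± 0.06, adjusted p = 0.175). The summed level of the 6 genes was 424 ± 28.2 FPKM in MEFs, 527 ± 11.97 at p5 and 548 ± 23.8 at p30.

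Of the 11 non-ATPase genes of the 19S particle, 5 rose, none fell and 6 did not pass. Over all tested genes 42.4% rose and 27.6% fell. Psmd4, a ubiquitin receptor, was at 130.6, 124.3 and 120.2 FPKM in MEFs, 225.6, 182.9 and 208.7 FPKM at p5 and 150.4, 165.6 and 175.6 FPKM at p30. It was above the MEFs in every ciXEN library and highest at p5, with a log2 fold change of 0.55 ± 0.08 (adjusted p = 0.000226). Psmd13, a subunit of the 19S lid, was at 38.5, 25.4 and 32.1 FPKM in MEFs and between 39.6 and 55.6 FPKM in ciXEN cells (0.61 ± 0.14, adjusted p = 0.00320). Psmd12, another lid subunit, rose from between 57.9 and 66.8 FPKM to between 73.98 and 97.7 FPKM (0.42 ± 0.07). Psmd14, the deubiquitinase of the lid, rose by 0.33 ± 0.08. Psmd11 had the smallest change, 0.03 ± 0.09 (adjusted p = 0.767).

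At p5 alone, Psmd2 and Psmd8 were below the MEFs. Psmd2, a scaffold subunit of the base, was at 73.7, 72.8 and 63.3 FPKM in MEFs and 55.3, 60.9 and 57.3 FPKM at p5, and fell (-0.27 ± 0.10, adjusted p = 0.0358). Psmd8 went from 98.8, 121.2 and 101.5 FPKM to 91.1, 86.7 and 87.8 FPKM and fell (-0.27 ± 0.09, adjusted p = 0.0262). The call of Psmd2 was lost without MEF library 1 or 2 or p5 library 1 or 3 (adjusted p from 0.0797 to 0.106). That of Psmd8 was lost without MEF library 2 or p5 library 2 or 3 (from 0.0616 to 0.0806). It was also lost with the library number as a block (0.0535), although MEF numbers pair with nothing. At p30 both overlapped the MEFs. Psmd8 was the 1 member among 24 with several listed transcripts whose leading transcript changed between groups, from Psmd8-202 to Psmd8-203, but the libraries disagreed. Psmd8-203 was at 79.0 and 63.6 FPKM in p30 libraries 1 and 3 and at 10.4 FPKM in library 2.

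Psmd3 was a member where a MEF library stood apart. It was at 52.2 FPKM in MEF library 1 and at 25.7 and 22.0 FPKM in the other MEF libraries, while the 6 ciXEN libraries lay between 29.4 and 34.8 FPKM. Its log2 fold change of 0.04 ± 0.22 did not pass (adjusted p = 0.897). Without MEF library 1 it was 0.40 ± 0.09 (adjusted p = 0.00511). The median over the 45 members was then 0.31, in place of 0.23. The chaperones of base assembly, Psmd5, Psmd9 and Psmd10, are not part of the finished particle. None of the 3 passed the test against MEFs over all ciXEN libraries, with log2 fold changes of -0.26, 0.46 and 0.22.

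The core assembly chaperones gave 2 genes that rose, Psmg2 and Psmg3, of 4 (42.4% of all tested genes rose). Psmg3 was at 8.75, 7.24 and 7.15 FPKM in MEFs, 11.6, 12.3 and 13.5 FPKM at p5 and 10.2, 11.1 and 11.98 FPKM at p30, with no overlap (0.55 ± 0.10, adjusted p = 0.00107). Psmg2 rose by 0.24 ± 0.09 (adjusted p = 0.0409), a call that 13 alternative settings did not keep. Psmg4 had the smallest change (-0.08 ± 0.24) and a wide spread at p30, with 78.3 FPKM in library 1 and 34.8 and 40.4 FPKM in the others.

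The activators behaved differently from each other. Psme4 encodes PA200, a nuclear activator, and was at 19.1, 21.8 and 18.7 FPKM in MEFs, 33.5, 29.9 and 30.3 FPKM at p5 and 31.2, 37.1 and 30.2 FPKM at p30. It was higher in every ciXEN library and rose by 0.66 ± 0.09 (adjusted p = 0.000168). Psme3, which encodes the nuclear activator PA28 gamma, was at 39.0, 35.6 and 34.7 FPKM in MEFs, between 40.9 and 41.2 FPKM at p5 and between 47.3 and 48.3 FPKM at p30, with the 3 groups separated. Psme3 rose by 0.28 ± 0.06 (adjusted p = 0.00375). Psmf1, an inhibitor of the core, was the least abundant constitutive member, at 4.45, 3.90 and 5.94 FPKM in MEFs and between 5.92 and 6.997 FPKM in ciXEN cells. It rose by 0.37 ± 0.12 (adjusted p = 0.0226), but without MEF library 1 or 2 the adjusted p was 0.081 or 0.11.

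Psme1 and Psme2 encode the alpha and beta chains of PA28, the activator that interferon-gamma induces together with the immune subunits. They are neighbours on chromosome 14, at chr14:55578123-55581529 and chr14:55587441-55591113. Unlike the immune subunits, they were not low in ciXEN cells at p5. Psme2 was at 50.3, 40.3 and 48.8 FPKM in MEFs, 40.7, 45.1 and 44.2 FPKM at p5 and 29.4, 23.4 and 33.6 FPKM at p30. The p5 libraries overlapped the MEFs and the p30 libraries lay below all others. Against MEFs its log2 fold change was -0.09 ± 0.14 at p5 (adjusted p = 0.564) and -0.68 ± 0.14 at p30 (adjusted p = 0.00188). Over both passages it fell by 0.39 ± 0.12 on the log2 scale (adjusted p = 0.0158), which did not pass without MEF library 1 (adjusted p = 0.0708) or 3 (adjusted p = 0.0637).

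Psme1 was at 64.7, 44.7 and 57.9 FPKM in MEFs, 77.9, 68.9 and 61.1 FPKM at p5 and 47.5, 50.4 and 56.1 FPKM at p30. Its 3 p30 libraries were below the 3 p5 libraries, but neither that difference (-0.42 ± 0.14, adjusted p = 0.106) nor that from MEFs (0.11 ± 0.13, adjusted p = 0.465) passed the test. The PA28 pair summed to 102 ± 15.5 FPKM (SD, n = 3) in MEFs, 113 ± 6.80 at p5 and 80.2 ± 8.42 at p30. The end of Psme1 overlaps that of Emc9 on the other strand. Psme2b, a gene outside the rule at 0.120 to 2.24 FPKM, has a name that marks it as a relative of Psme2, and fragments may be shared between the 2 genes.

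**Figure D4:**
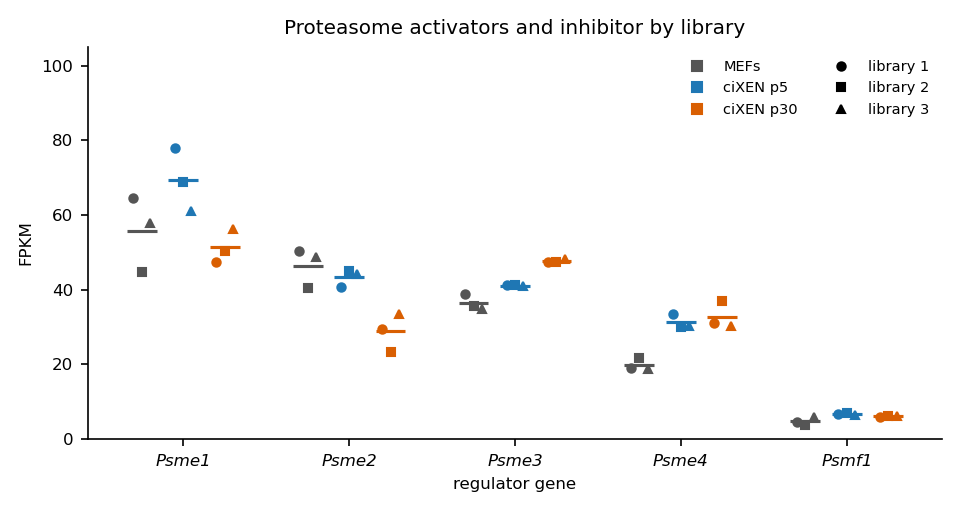
FPKM of the activator genes Psme1 to Psme4 and the inhibitor gene Psmf1 in each library, with a short line at each group mean. Psme2 lies between 23.4 and 33.6 FPKM at p30, below every p5 and MEF library, while Psme3 and Psme4 are higher in ciXEN cells than in MEFs.

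Each passage was also compared with MEFs on its own. At p5, 17 members rose (37.8%, against 40.7% of all tested genes) and 6 fell (13.3%, against 25.8%). At p30, 25 rose (55.6%, against 38.2%) and 3 fell (6.67%, against 26.6%). The 3 that fell at p30 were Psmb8, Psmb10 and Psme2, and those that fell at p5 were Psma3, Psma4, Psmb8, Psmb10, Psmd2 and Psmd8. These 2 comparisons share the MEF libraries. The median log2 fold change of the members was 0.17 at p5 (0.22 over all tested genes) and 0.33 at p30 (0.17 over all tested genes).

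The direct comparison of the passages asks whether long culture altered these genes. With limma no member rose from p5 to p30 (0 of 45, against 3.08% of all tested genes) and 1 fell, Psme2 (2.22%, against 5.61%), at -0.58 ± 0.14 (adjusted p = 0.0325). With the cell line as a block and only the p5 and p30 libraries the adjusted p of Psme2 was 0.161 and no member passed. The call of Psme2 was also lost with only these libraries and no block (adjusted p = 0.0839), and when any 1 library other than MEF library 2 or p30 library 3 was left out (7 of 9 fits, adjusted p from 0.0504 to 0.0953). At an unadjusted p under 0.05 there were 17 members, 14 of them higher at p30 (9.89% of all tested genes were higher at this level).

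Values above 0 were nevertheless common. The p30 and p5 libraries did not overlap for 24 members (53.3%, against 28.8% of all tested genes). The p30 libraries were above in 20 and below in 4, namely Psmd4, Psme1, Psme2 and Psmf1. Over all tested genes 12.4% lay wholly above and 16.4% wholly below. The median log2 fold change of the members was 0.13, against -0.02 over all tested genes, and 36 of 45 values were above 0. Within lines 1-1, 2-1 and 3-3, 28, 32 and 34 of the 45 members were higher at p30. These were 62.2%, 71.1% and 75.6%, against 49.2%, 45.1% and 44.1% of all tested genes. In all 3 lines 20 members were higher (44.4%, against 19.4% of all tested genes) and 6 were lower (13.3%, against 24.7%). All 7 alpha genes had positive values, from 0.15 for Psma2 to 0.30 for Psma3, and so had all 7 constitutive beta genes, from 0.05 for Psmb1 to 0.32 for Psmb6. The ATPases were spread around 0, from -0.07 for Psmc4 to 0.13 for Psmc6. Psmd10 had the highest value (0.37 ± 0.12, adjusted p = 0.0843) and Psmd4 the lowest after Psme2 and Psme1 (-0.32 ± 0.09, adjusted p = 0.0660).

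This comparison depended on how libraries were scaled. With library medians set equal, 14 members rose and 1 fell, and over all tested genes 785 rose and 563 fell, in place of 383 and 698. The members that rose under this scaling were Psma1, Psma3, Psma4, Psmb2, Psmb6, Psmb7, Psmd1, Psmd2, Psmd6, Psmd7, Psmd8, Psmd10, Psmd12 and Psme3, with log2 fold changes between 0.28 and 0.48. After quantile normalisation no member rose and 2 fell, with 463 and 532 of all tested genes rising and falling. The median of the members stayed above that of all tested genes under each scaling, by 0.07 to 0.18.

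**Figure D5:**
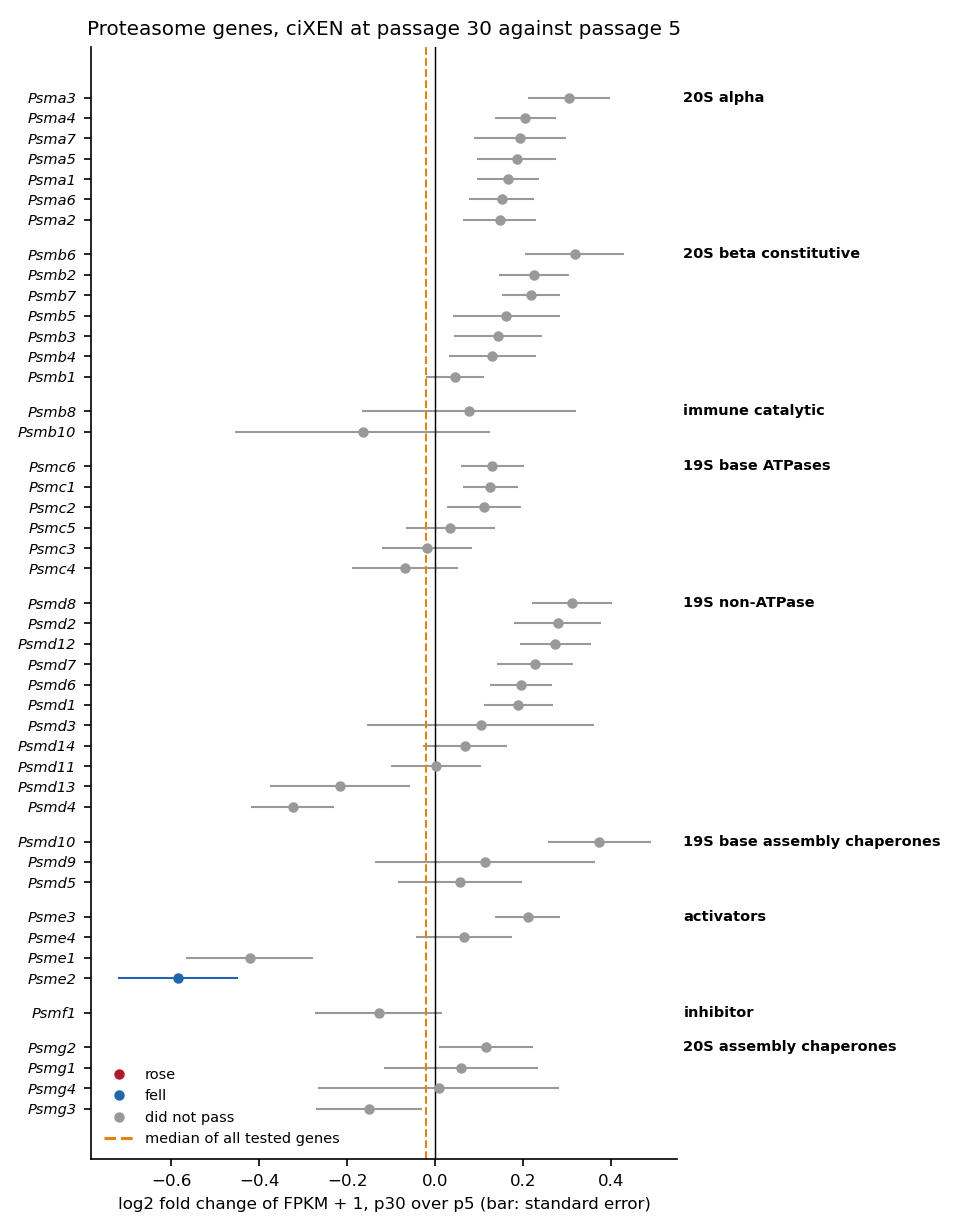
Log2 fold change (p30 over p5) of the 45 tested proteasome genes by structural group, with bars of 1 standard error. Of the 45 values 36 lie above 0 and only Psme2 (-0.58) passed the test, and the dashed line marks the median of all tested genes (-0.02).

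Replicate libraries agreed closely for most members. The median coefficient of variation over the 43 constitutive genes was 8.57% in MEFs, 5.40% at p5 and 6.01% at p30. The medians over genes of at least 5 FPKM were 10.2%, 10.5% and 13.96%. The most variable of these 43 genes were Psmd3 in MEFs (49.5%), Psmd9 at p5 (19.8%) and Psmg4 at p30 (46.2%). The immune genes were left out of these figures and varied more relative to their low levels. Psmb8 at p5 had a mean of 0.235 FPKM and an SD of 0.261. Psmb9 in MEFs had a mean of 0.827 FPKM and an SD of 0.592.

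Among 16 factors that work with the proteasome, 6 rose and 2 fell against MEFs, beside 42.4% and 27.6% of all tested genes. Their median log2 fold change was 0.08, against 0.20 over all tested genes. Ubqln2, a shuttle that brings ubiquitinated proteins to the proteasome, was at 32.0, 31.3 and 29.9 FPKM in MEFs, 78.9, 72.5 and 85.1 FPKM at p5 and 153.4, 107.1 and 112.1 FPKM at p30. The groups were separated in that order, and Ubqln2 rose against MEFs (1.63 ± 0.11) and from p5 to p30 (0.63 ± 0.13). With the cell line as a block and only the p5 and p30 libraries, no tested gene passed between passages, Ubqln2 included. Uchl5, a deubiquitinase of the 19S particle, rose by 1.25 ± 0.12, from between 15.8 and 20.9 FPKM to between 38.3 and 62.5 FPKM. Fbxo7, which binds Psmf1, rose by 1.04 ± 0.15. The 2 that fell were the deubiquitinase gene Usp14 and Zfand5. Usp14 rose again from p5 to p30 (adjusted p = 0.0305, or 0.0666 with the library number as a block in all 9 libraries). Of 11 genes for ubiquitin, its activation and the segregase that extracts ubiquitinated proteins, 3 rose and 4 fell. The shares of all tested genes were 42.4% and 27.6%. Faf1 (0.65) rose, and the main ubiquitin-activating enzyme gene Uba1 (-0.52) fell.

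Of 14 genes that control proteasome transcription, 5 rose and 4 fell, beside 42.4% and 27.6% of all tested genes. Nfe2l1 encodes the factor that induces proteasome genes when the proteasome is inhibited. It was at 23.0, 21.5 and 22.3 FPKM in MEFs, 9.88, 8.38 and 8.34 FPKM at p5 and 9.83, 11.2 and 11.2 FPKM at p30, and fell by 1.11 ± 0.09 on the log2 scale. Ngly1, whose enzyme processes the NFE2L1 protein, fell from between 5.85 and 7.79 FPKM to between 1.05 and 2.27 FPKM (-1.55). Of the 6 members with an antioxidant response element match, Psmb6, Psmd12 and Psme4 rose, and Psmb5, Psmc6 and Psmd9 did not pass. Over all tested members 53.3% rose, and over all tested genes 42.4%. Whether NFE2L1 acts on these genes here was not tested. Maff, a small Maf partner of NFE2L1 and NFE2L2, fell (-2.24). Nfe2l3, a relative of Nfe2l1, rose from at most 0.115 FPKM in MEFs to between 1.25 and 3.78 FPKM in ciXEN cells. Foxo4 had the largest rise of the list on the log2(FPKM + 1) scale (2.83 ± 0.25), from between 4.44 and 6.26 FPKM to between 20.5 and 63.7 FPKM. As a percentage of the MEF mean, its ciXEN mean was 862% and that of the low gene Nfe2l3 was 2868%. The CCAAT box factor genes Nfya, Nfyb and Nfyc all rose, by 0.94, 0.61 and 0.54.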

How the data were processed

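RNA was sequenced from 3 MEF, 3 ciXEN p5 and 3 ciXEN p30 libraries after removal of ribosomal RNA, with a stranded (dUTP) kit. The authors deposited FPKM values per transcript for each library, with no counts, so depth per library is unknown. The submitters' processing notes name cutadapt, HISAT2 2.0.5, StringTie, STAR 2.5.2b and the human build hg19, without role or order, although the transcript IDs are mouse Ensembl IDs. The sources used here do not say how hg19 bears on these values.

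Of 29599 transcripts, 29521 matched GENCODE M21 (GRCm38) by stable ID, 28196 of them in the same version, and the 78 others held 0.158% of the FPKM. FPKM were summed per gene, and 12443 genes whose mean over all libraries reached 0.5 FPKM were kept. Values as log2(FPKM + 1) were fitted with limma 3.58.1 (R 4.3.3), empirical Bayes moderation with a mean trend, with 1 coefficient per group and no block. A fold change on this scale understates the change of low genes. Fits on some of the libraries kept the same genes. The shares of catalytic pairs were compared by exact permutation tests (scipy 1.17.1). The planned log ratio of each pair was replaced by the share, since some values are 0. The code was tested on simulated data.

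Named genes were the 6 catalytic subunits, Psme1 to Psme4 and Psmf1, and in each structural group or list the 3 genes past the threshold with the largest change, with, for structural groups, the gene with the smallest change. Genes named outside this rule (Psma3, Psma4, Psmb1 to Psmb4, Psmc1, Psmd2, Psmd3, Psmd5, Psmd8 to Psmd10, Psmd14, H2-D1, H2-K1, Tyk2, Usp14, Zfand5, Nfe2l1, Ngly1, Irf9, the Nfy genes and the macrophage markers) were chosen after their values were seen, and 2 genes that the rule names are not reported here. The members and gene lists were chosen with earlier results of these data known. The p5 and p30 libraries of 1 number are the same line by their labels. The correlations of their deviations from the group means were -0.00545, 0.0142 and 0.0714. MEF numbers pair with nothing. Alternatives were other pseudocounts (0.1 and 0.5), filters (none and a mean of 1 FPKM) and scalings, and moderation without a trend. Others were a block by library number (the line in ciXEN cells), the highest transcript only, only the groups compared, and leaving out each library. Promoter windows come from RefSeq (GRCm38.p6).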

Additional observations from a re-analysis of the deposited data

Results flagged for a closer look

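Psme2, the PA28 beta chain gene, was singled out because its change from MEFs differed between the passages by a direct test. The change at p30 minus that at p5 was -0.585 on the log2 scale (limma, adjusted p = 0.032), with all 3 p30 libraries below all 3 p5 libraries. The test of this difference is that of p30 against p5 and shares its values. It did not pass in 7 of the 9 fits without 1 library (adjusted p from 0.0504 to 0.0953), with only the p5 and p30 libraries (0.0839) or with the line as a block in these (0.161). The level moved in the same direction in each of the 3 lines. Among the 46 members none had a library that stood apart from the other 5 ciXEN libraries by Dixon's test at the 95% level.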

How the results depend on the processing

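No result that passed the test changed direction under any alternative run. Between ciXEN cells and MEFs, 18 to 25 members rose and 3 to 7 fell. The count that fell was 3 with only the 2 groups compared, and 3 (without MEF library 1) to 5 when 1 library was left out. With library medians set equal, 10 members rose at p5 in place of 17, and that scaling moved the median of all tested genes from 0.22 to 0.12 in that comparison. The median of the members (ciXEN against MEFs) was 0.151 with equal library sums, 0.164 with equal medians and 0.124 after quantile normalisation, and 0.202 to 0.307 when 1 library was left out. From p5 to p30, 1 member rose with no filter on low values and 14 with equal medians, when the median of the members was 0.241, and 0 to 1 rose when 1 library was left out. The count that fell was 2 after quantile normalisation, 0 with only the 2 groups compared and 0 to 1 without 1 library. The 1 member that fell without p5 library 2 was Psmd4 (adjusted p = 0.046), not Psme2. With the cell line as replicate block, 0 members and 0 of all 12443 tested genes passed in the fit of p5 and p30 libraries (limma, 16 members and 2538 genes with p under 0.05 before adjustment). In the fit of all 9 libraries the block was the library number, which tied each MEF library to a line without a basis in the labels. With it the calls of Psma7, Psmb6 and Psmg2 (ciXEN cells against MEFs) were lost. So were those of Psma1, Psmb3 and Psmd8 (p5 against MEFs), Psmd1 (p30 against MEFs) and, outside the members, Usp14 (p30 against p5). Psmd9 rose against MEFs (adjusted p = 0.0331), also at p30 alone (0.0397). The differences of the pair shares (ciXEN minus MEFs, percentage points) lay between -13.1 and -9.55 for Psmb8, -1.55 and -0.813 for Psmb9 and -5.98 and -4.44 for Psmb10 when 1 library was left out, and p was 0.071 without a MEF library. Over single genes, 961 values from alternatives kept the call, 56 lost it and 8 gained it, and the cause was not tested. Calls of Psma7, Psmb6 and Psmg2 were lost most often. The unknown depth limits what can be said of Psmb9 and of ciXEN levels of Psmb8 and Psmb10.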
